A study of Mus musculus with 6 samples.

Results

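Scavenger receptors are cell-surface and endosomal proteins with which macrophages bind and take up modified lipoproteins, hemoglobin complexes, microbes and cell debris. They are grouped into classes by their structure rather than by descent, so members of different classes share ligands but not sequence. Tissue-resident macrophages of connective tissue are known for their endocytic activity, to which these receptors contribute. The genes examined here were *Cd163*, *Msr1*, *Marco*, *Cd36*, *Scarb1*, *Scarb2*, *Colec12*, *Scara3*, *Scarf1* and *Cd68*, chosen by gene symbol, and all 10 were found among the 24061 symbols of the count table. The rule named genes and used no measured value, but the genes were chosen with earlier results of these data known. The study had already reported *Cd163* as higher in the Lyve-1+ cells in its bulk RNA-seq.

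Macrophages were sorted by flow cytometry from the inguinal mammary glands of FVB/N mice as CD45+CD11b+F4/80+Lyve-1- or CD45+CD11b+F4/80+Lyve-1+ cells and analysed by bulk RNA-seq. There were 3 Lyve-1- and 3 Lyve-1+ libraries, and every library pooled 4 mice. The mice were 6 weeks old for replicate 1 and 10 weeks old for replicates 2 and 3 of either population, and the labels name no transgene and no treatment. Nothing in the labels states whether same-numbered libraries of the populations came from the same mice. The question addressed by the comparison was whether Lyve-1+ macrophages have a transcriptional profile distinct from that of Lyve-1- macrophages.

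Library totals ran from 6478007 to 21406839 counts, and a count of 0 leaves room for a level of as much as 3 counts (0.144 to 0.437 CPM, counting error only). CPM denotes counts scaled to a common library size by TMM. *Lyve1* was between 1.43 and 7.43 CPM in the Lyve-1- libraries and between 597 and 2352 CPM in the Lyve-1+ libraries, which fits the labels. By the rule for calling genes given below, *Lyve1* itself was not called (log2 fold change 7.93, adjusted p = 0.0254 in edgeR). A gene can thus differ widely between the populations without being called. Summed over 7 macrophage markers (*Ptprc*, *Itgam*, *Adgre1*, *Csf1r*, *Cd14*, *Fcgr1* and *Mertk*, with *Adgre1* listed under its older symbol *Emr1*), the level was 4022 to 6487 CPM in the Lyve-1- population and 4266 to 5315 CPM in the Lyve-1+ population. Single markers went in opposite directions. *Csf1r* was higher in every Lyve-1+ library (1745, 1164 and 1109 against 847, 786 and 707 CPM). *Ptprc* was lower in every one (645, 966 and 1128 against 1693, 1210 and 1309 CPM), and the remaining markers overlapped. Of 1122 olfactory receptor genes, which macrophages are not known to use, 652 were detected in Lyve-1- replicate 3, whereas Lyve-1+ replicates 1 and 2 held 370 and 134 and the other libraries 4 to 34.

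Transcripts of *Cd163* and *Colec12* were higher in Lyve-1+ macrophages, 5.53-fold and 8.94-fold, and these 2 of the 10 receptors passed the test for a difference between the populations. The other 8 did not pass it, with log2 fold changes from 0.17 for *Cd36* to 1.58 for *Marco*. Genes were called at an adjusted p-value under 0.01 with a log2 fold change between 1 and 10 in size (edgeR quasi-likelihood test, Benjamini-Hochberg adjustment over 13348 genes). Of all genes tested, 0.105% were called higher in the Lyve-1+ population by this rule, 0.00749% were called lower and 0.112% were called in either direction. All 10 receptors passed the filter on low counts. Fitted log2 fold changes were above 0 for all 10 receptors, with a median of 0.69, whereas 49.4% of all genes tested were above 0 and the median of all genes was -0.01. The number above 0 stayed at 10 under other scalings and fell to 7 without Lyve-1+ replicate 2, where *Marco*, *Cd36* and *Scarb1* were below 0, and to 9 without replicate 3 of either population. All Lyve-1+ libraries lay above all Lyve-1- libraries for 4 receptors, *Cd163*, *Colec12*, *Scarb2* and *Cd68*, which was the case for 7.82% of all genes tested, with 6.5% not overlapping in the opposite direction. In 6 of the 10 receptors (these 4, *Msr1* and *Cd36*), each Lyve-1+ library was above the Lyve-1- library of the same number, as in 16.3% of all genes tested. With library totals as the scaling, 3 receptors rather than 4 were without overlap between the populations, and *Scarb2* overlapped. In bulk samples, a change in the share of cells that use a gene and a change in the RNA per cell cannot be told apart.

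**Figure D1:**
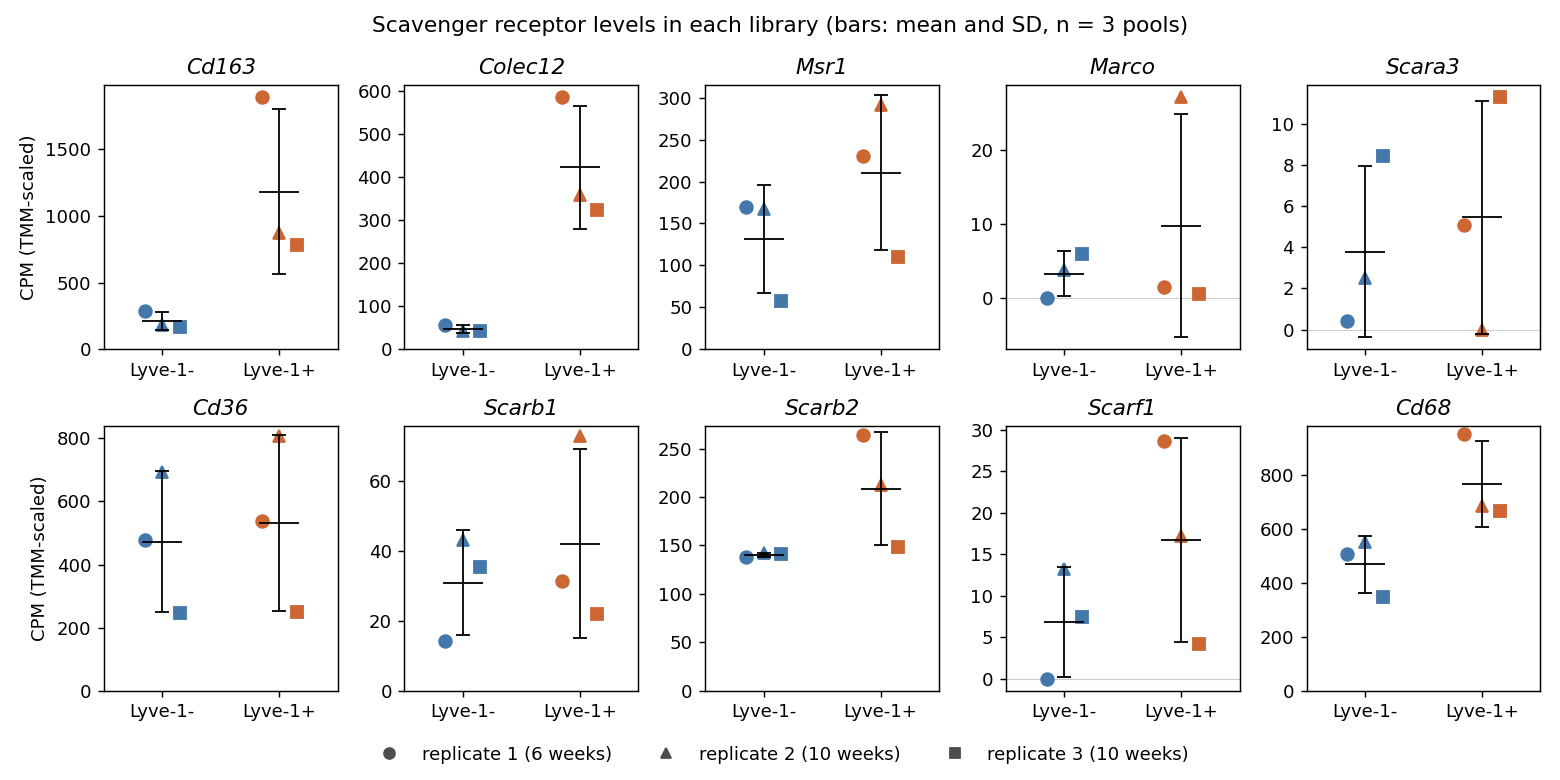
Level of each scavenger receptor (vertical axis, TMM-scaled CPM, with a separate linear scale per gene) in the 3 Lyve-1- libraries (blue) and 3 Lyve-1+ libraries (orange). Horizontal bars are means, whiskers are SD and symbols mark the replicate number. The populations are widely apart for *Cd163* and *Colec12*, narrowly apart for *Scarb2* and *Cd68*, and overlap for the remaining 6 genes.

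*Cd163* (ENSMUSG00000008845.9, chromosome 6 of mm10, 124304656 to 124330527) encodes the receptor that clears complexes of hemoglobin and haptoglobin and carries scavenger receptor cysteine-rich domains. Replicates 1, 2 and 3 were at 291, 182 and 169 CPM in the Lyve-1- population and at 1896, 874 and 781 CPM in the Lyve-1+ population. The lowest Lyve-1+ library was thus well above the highest Lyve-1- library, and the 6-week library had the highest level in each population. The log2 fold change was 2.47 (standard error, SE, 0.36, adjusted p = 0.00805 in edgeR), with a 95% interval of 3.24- to 9.46-fold. Between same-numbered libraries, *Cd163* was 6.51-, 4.81- and 4.63-fold higher in the Lyve-1+ library.

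*Colec12* (ENSMUSG00000036103.9, chromosome 18, 9707595 to 9882644) encodes a class A receptor with a collagen-like stalk and a C-type lectin domain that binds carbohydrates, microbes and oxidized lipoproteins. It was at 57.6, 41.8 and 42.3 CPM in Lyve-1- replicates 1, 2 and 3. The Lyve-1+ replicates were at 586, 358 and 323 CPM, each more than 5-fold above the highest Lyve-1- library. Its log2 fold change was 3.16 (SE 0.32, adjusted p = 0.000524 in edgeR), with a 95% interval of 5.55- to 14.4-fold. Between same-numbered libraries, *Colec12* was 10.2-, 8.58- and 7.63-fold higher in the Lyve-1+ library.

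The calls of these 2 genes depended on which libraries were included. Without Lyve-1- replicate 3, neither was called (adjusted p = 0.0707 for *Cd163* and 0.0142 for *Colec12* in edgeR), and in that fit 1 gene in all was called. Without Lyve-1- replicate 2, *Cd163* was not called (adjusted p = 0.0165 in edgeR) and *Colec12* was. In the 4 libraries with the fewest olfactory receptor genes (Lyve-1- replicates 1 and 2 and Lyve-1+ replicates 2 and 3), neither was called (adjusted p = 0.132 for *Cd163* and 0.0435 for *Colec12* in edgeR, unadjusted p = 0.000176 and 1.06e-05), a choice of libraries made after the counts were seen. The sizes of the differences varied less than the p-values. Across these and the remaining alternatives, the log2 fold change ran from 1.79 to 2.74 for *Cd163* and from 2.76 to 3.32 for *Colec12*. In the 10-week libraries alone, they were 2.23 (adjusted p = 0.00521 in edgeR) and 3.01 (adjusted p = 0.0016 in edgeR).

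**Figure D2:**
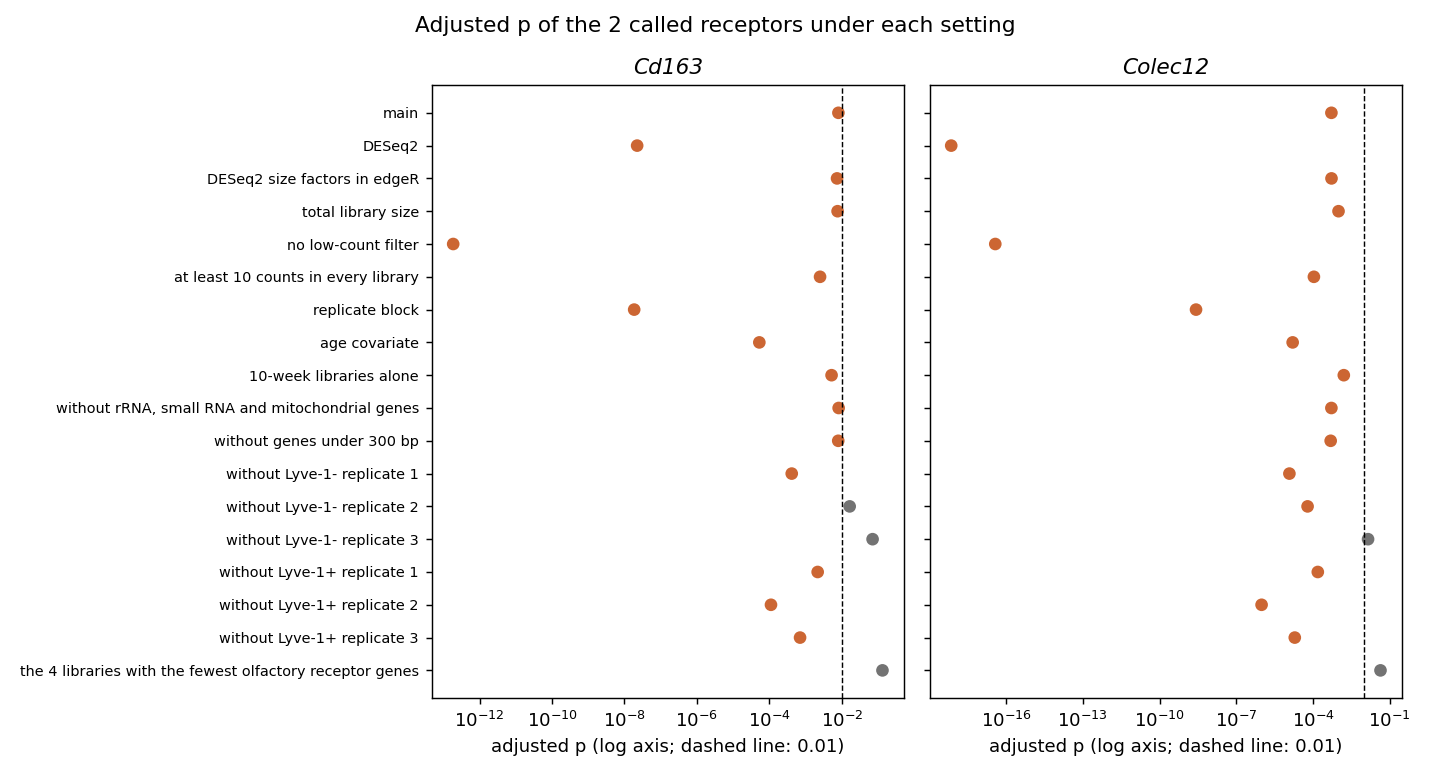
Adjusted p-value (horizontal log axis) of *Cd163* (left) and *Colec12* (right) in the reported fit, named main, and under each alternative setting (rows), with the limit of 0.01 as a dashed line and grey points above it. *Cd163* lies beyond the limit in 3 settings and *Colec12* in 2, all of which leave out Lyve-1- replicate 2 or replicate 3.

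Fibroblast transcripts also differed between the libraries. Summed over 8 fibroblast markers (*Pdgfra*, *Pdgfrb*, *Dcn*, *Lum*, *Col1a1*, *Col1a2*, *Col3a1* and *Col6a1*), the level was 1033 to 1239 CPM in the Lyve-1- libraries and 2454, 1828 and 7405 CPM in Lyve-1+ replicates 1, 2 and 3. Of these markers, 6 had all Lyve-1+ libraries above all Lyve-1- libraries, as in 7.82% of all genes tested. In edgeR 0 were called, and 6 were higher in the Lyve-1+ population at an unadjusted p under 0.05, as were 4.2% of all genes tested. DESeq2 called 1 marker (*Col1a2*) and 0.697% of all genes in that fit. Without Lyve-1+ replicate 2, edgeR called 5 markers (*Pdgfra*, *Col1a1*, *Col1a2*, *Col3a1* and *Col6a1*) and 0.541% of all genes tested. *Colec12* is known to be expressed in stromal and endothelial cells as well as in macrophages. Within the Lyve-1+ population, *Colec12* was lowest (323 CPM) in replicate 3, the library with the highest sum of fibroblast markers. Markers of blood endothelium overlapped between the populations, at 83.2 to 180.4 CPM against 81.3 to 273 CPM in sum, as did markers of lymphatic endothelium at 14.6 to 60.2 against 17.1 to 42.7 CPM, of which *Ccl21a* was at 0 in every library. The populations did not overlap for the summed markers of neutrophils (led by *S100a9*, 9.66 to 23.3 against 28.6 to 219 CPM), of dendritic cells (led by *Ccr7*, 194 to 639.5 against 42.5 to 159 CPM) or of adipocytes (led by *Lipe*, 24.9 to 38.9 against 15.9 to 21 CPM). Of the neutrophil markers, *S100a8* and *S100a9* did not overlap, *Mpo* and *Elane* did, and *Ly6g* was not among the symbols. Of the dendritic cell markers, *Ccr7* and *Xcr1* did not overlap, whereas *Flt3*, *Zbtb46* and *Clec9a* did. The adipocyte sum was mostly *Lipe*, at 33.2, 23.4 and 21.3 CPM in the Lyve-1- replicates and 16.3, 12.4 and 14.2 CPM in the Lyve-1+ replicates. *Adipoq* and *Plin1* had higher means in the Lyve-1+ population (0.657 and 0.916 against 0.235 and 0.243 CPM), and *Lep*, *Cidec* and *Retn* lower ones. The share of counts from *Rn45s*, a ribosomal RNA precursor, was 4.56%, 5.04% and 4.67% in the Lyve-1- replicates and 7.39%, 7.99% and 5.5% in the Lyve-1+ replicates, also without overlap. Without ribosomal RNA, small RNA and mitochondrial genes, the log2 fold changes were 2.44 for *Cd163* and 3.14 for *Colec12*, and both were called. The part of other cell types in the *Cd163* and *Colec12* differences was not tested.

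Ratios within a library, which no scaling between libraries can change, were compared next. *Cd68* encodes macrosialin, a class D glycoprotein of late endosomes and lysosomes that is used as a general macrophage marker. The ratio of *Cd163* to *Cd68* counts was 0.574, 0.330 and 0.485 in the Lyve-1- replicates and 1.99, 1.27 and 1.17 in the Lyve-1+ replicates. The ratio of *Colec12* to *Cd68* counts was 0.114, 0.0758 and 0.121 against 0.617, 0.522 and 0.485. The populations did not overlap for either ratio, and the two-sided exact permutation test gave p = 0.1 for each, the smallest value possible with 3 libraries against 3. The ratio of *Colec12* to *Cd163* counts was 0.198, 0.230 and 0.250 in the Lyve-1- replicates and 0.309, 0.410 and 0.413 in the Lyve-1+ replicates (exact permutation p = 0.1). The 95% intervals of the 2 fold changes overlapped.

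*Cd163* and *Colec12* varied together over the 6 libraries (Pearson's r = 0.983 for log2 CPM with a prior count of 2, n = 6), a description that the population difference itself contributes to. Among all genes tested, the patterns closest to that of *Cd163* were those of *Cbr2*, a carbonyl reductase (r = 0.998), *Rhob*, a small GTPase of endosomes (r = 0.995), and *Itm2b*, a transmembrane protein (r = 0.994). *Cbr2* was at 90.6, 64.6 and 56.7 CPM in the Lyve-1- replicates and at 732, 295 and 278 CPM in the Lyve-1+ replicates, and was called (log2 fold change 2.62, adjusted p = 0.00805 in edgeR). The closest patterns to that of *Colec12* were those of *Exoc7*, a subunit of the exocyst (r = 0.991), *Itm2b* (r = 0.991) and *Rhob* (r = 0.990). *Rhob*, *Itm2b* and *Exoc7* were not called (log2 fold changes of 1.53, 0.97 and 1.05, adjusted p-values of 0.0263, 0.0873 and 0.797 in edgeR).

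*Cd68* (ENSMUSG00000018774.13, chromosome 11, 69664213 to 69666153) was at 507, 551 and 348 CPM in the Lyve-1- replicates and at 951, 686 and 665 CPM in the Lyve-1+ replicates. The populations did not overlap, but the distance between them was small. Its log2 fold change of 0.71 (SE 0.26, 95% interval 1.11- to 2.42-fold) was not called (adjusted p = 0.418 in edgeR). *Cd68* was the only receptor besides *Cd163* and *Colec12* with an unadjusted p under 0.05, a level that 4.2% of all genes tested reached with higher values in the Lyve-1+ population.

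The upstream sequences of *Cd163* and *Cd68* are shown because the former was called and the latter, measured in the same cells, was not. They are the 250 bases before the start of each gene on its own strand in the RefSeq promoter table (GRCm38.p6), which held such a window for 5 of the 10 receptors. The *Cd163* window is chr6:124304401-124304650 on the plus strand and the *Cd68* window is chr11:69666171-69666420 on the minus strand. Both are written 5′ to 3′ in lower case, with capitals for matches to any of 4 short motifs.
Cd163: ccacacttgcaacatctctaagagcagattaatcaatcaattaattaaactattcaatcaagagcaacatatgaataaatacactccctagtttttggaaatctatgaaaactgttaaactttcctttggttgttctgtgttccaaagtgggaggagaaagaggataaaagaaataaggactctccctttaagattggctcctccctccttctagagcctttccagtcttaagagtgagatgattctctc
Cd68: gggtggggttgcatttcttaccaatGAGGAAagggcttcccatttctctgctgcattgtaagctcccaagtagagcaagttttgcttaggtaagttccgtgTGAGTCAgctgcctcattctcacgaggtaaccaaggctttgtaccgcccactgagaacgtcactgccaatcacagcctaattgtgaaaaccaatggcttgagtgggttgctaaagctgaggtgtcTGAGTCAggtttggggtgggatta

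The motifs were searched on both strands, and none of the matches in the *Cd68* window overlap. They were GAGGAA, the core bound by PU.1 and other ETS factors, TGANTCA, the AP-1 site, TGCTGA, part of a MAF site, and CACGTG, the E-box bound by MITF and TFEB. The *Cd68* window held 1 match to GAGGAA and 2 to TGANTCA, while the *Cd163* window held none of the 4. Of 32851 windows of this length, 23.3% held GAGGAA, 6.75% TGANTCA, 16.1% TGCTGA and 6.02% CACGTG. These matches describe the letters of the windows and were not tested for binding.

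The remaining class A receptors differed in level. *Msr1* (ENSMUSG00000025044.16, chromosome 8, 39581685 to 39642673), the macrophage receptor for acetylated and oxidized lipoproteins, was at 170, 167 and 57.4 CPM in the Lyve-1- replicates and at 230, 291 and 110 CPM in the Lyve-1+ replicates. Each Lyve-1+ library was above the Lyve-1- library of the same number, but the populations overlapped, with replicate 3 the lowest in both. The log2 fold change was 0.68 (SE 0.44, adjusted p = 0.92 in edgeR), and its 95% interval ran from 0.831- to 3.07-fold. The ratio of *Colec12* to *Msr1* counts, which compares 2 class A receptors in the same library, was 0.339, 0.250 and 0.736 in the Lyve-1- population and 2.55, 1.23 and 2.94 in the Lyve-1+ population, again without overlap (exact permutation p = 0.1).

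*Marco* (ENSMUSG00000026390.7, chromosome 1, 120474538 to 120505024), a collagen-like receptor for bacteria and inhaled particles that resident macrophages of lung, spleen and lymph node are known for, had few counts. The Lyve-1- replicates held 0, 43 and 41 counts and the Lyve-1+ replicates 20, 566 and 5. The level in Lyve-1+ replicate 2 was 27.1 CPM, whereas the other 5 libraries were between 0 and 5.98 CPM. Its log2 fold change of 1.58 (SE 1.87, adjusted p = 1 in edgeR) became -1.59 without that library.

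*Scara3* (ENSMUSG00000034463.4, chromosome 14, 65919394 to 65953935), a class A member known for its induction by oxidative stress, held 5, 28 and 58 counts in the Lyve-1- replicates and 67, 0 and 90 counts in the Lyve-1+ replicates. The populations overlapped, and the log2 fold change of 0.53 had an SE of 2.08 (adjusted p = 1 in edgeR). It was -0.58 without Lyve-1+ replicate 3. In that library, the *Scara3* level was 11.3 CPM, the highest of the 6, beside the highest sum of fibroblast markers. In Lyve-1- replicate 3, where most olfactory receptor genes had counts, the count density of those genes would place 9.5 counts on the exons of *Scara3*, against 58 observed. In Lyve-1+ replicate 2 that density would place 4.2 counts there, against 0 observed. The source of the *Scara3* counts was not tested.

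*Scarf1* (ENSMUSG00000038188.17, chromosome 11, 75513540 to 75526582), a class F receptor for acetylated lipoproteins and apoptotic cells that is known from endothelium, held 0, 149 and 51 counts in the Lyve-1- replicates. The Lyve-1+ replicates held 377, 360 and 33 counts. At 6 weeks, it was at least 114-fold higher in the Lyve-1+ library, measured against the limit of 3 counts in the Lyve-1- library, while the 10-week pairs gave 1.3-fold and 0.559-fold. The change of the population difference between the ages had an unadjusted p of 0.00253 and an adjusted p of 0.612 (edgeR interaction term), so it was not called. Over all 6 libraries, its log2 fold change was 1.28 (SE 1.36, adjusted p = 1 in edgeR).

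In class B, *Cd36* (ENSMUSG00000002944.15, chromosome 5, 17781690 to 17888801), which binds long-chain fatty acids, oxidized lipoproteins and thrombospondin, was among the most abundant receptors. It was at 477, 693 and 247 CPM in the Lyve-1- replicates and at 539, 807 and 250.1 CPM in the Lyve-1+ replicates. Same-numbered libraries were close to each other, with ratios of 1.13, 1.16 and 1.01, and the difference between the populations was smaller than the spread within either. The log2 fold change was 0.17 (SE 0.43, adjusted p = 1 in edgeR), with a 95% interval of 0.583- to 2.18-fold, so that a difference as large as that of *Cd163* lay outside the interval. Its direction changed with the libraries included, to -0.14 without Lyve-1- replicate 3 and to -0.29 without Lyve-1+ replicate 2. *Cd36* and *Msr1* varied together over the libraries (r = 0.879, n = 6), and both were lowest in replicate 3 of each population, the 2 libraries with the fewest total counts.

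*Scarb1* (ENSMUSG00000037936.15, chromosome 5, 125277087 to 125341094), the receptor for high-density lipoprotein through which cells exchange cholesterol, was at 14.2, 43.2 and 35.4 CPM in the Lyve-1- replicates and at 31.4, 72.8 and 22 CPM in the Lyve-1+ replicates. The populations overlapped, and the log2 fold change was 0.45 (SE 0.57, adjusted p = 1 in edgeR, 95% interval 0.588- to 3.16-fold). Without Lyve-1+ replicate 2 it was -0.23.

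*Scarb2* (ENSMUSG00000029426.8, chromosome 5, 92441314 to 92506833) encodes LIMP-2, a lysosomal membrane protein that carries glucocerebrosidase to the lysosome. The 3 Lyve-1- replicates were at 138, 142 and 141 CPM, the smallest spread of any receptor (140.6 ± 2.09, SD, n = 3). The Lyve-1+ replicates were at 265, 213 and 148 CPM. On the TMM scale the populations did not overlap, but Lyve-1+ replicate 3 was only 1.05-fold above its Lyve-1- counterpart. With library totals as the scaling, the populations overlapped. The log2 fold change of 0.57 (SE 0.29, adjusted p = 0.717 in edgeR) was not called. *Scarb2*, *Scarb1* and *Cd36* belong to 1 protein class and lie on the same chromosome, and none of them was called.

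**Figure D3:**
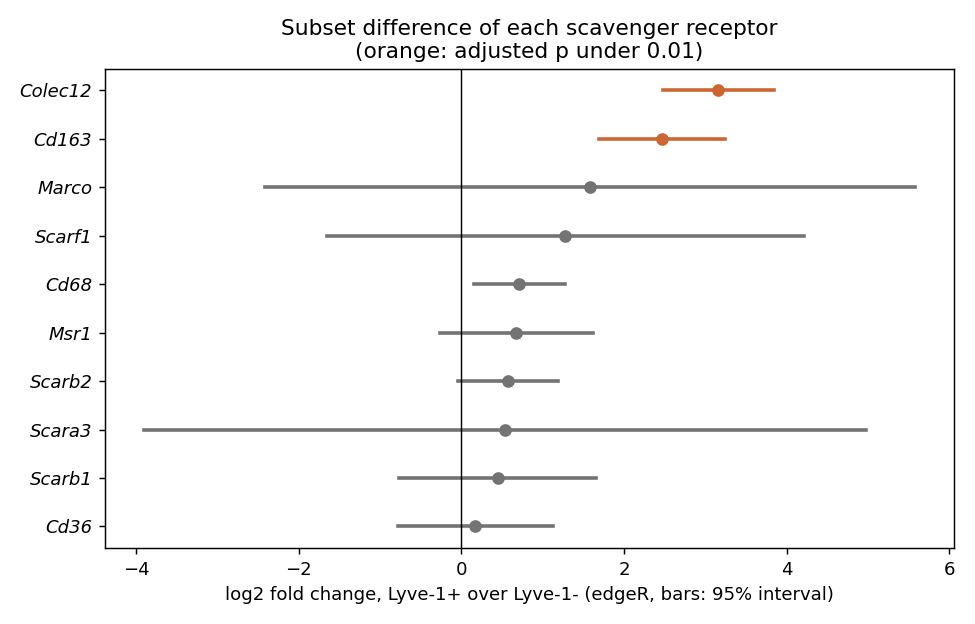
Log2 fold change of each receptor, Lyve-1+ over Lyve-1- (horizontal axis, points), with its 95% interval from the edgeR fit (bars), ordered by size. *Colec12* and *Cd163* (orange) have intervals well above 0 and adjusted p-values under 0.01; the intervals of *Marco*, *Scarf1* and *Scara3* span several log2 units on either side of 0.

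To compare levels between the receptors, CPM were divided by the length of the annotated exons in kb. *Cd68* had the highest level per kb in every library, at 373 ± 84.9 (SD, n = 3) in the Lyve-1- population and 611 ± 127 (SD, n = 3) in the Lyve-1+ population. In the Lyve-1- population it was followed by *Cd36* (132 ± 62.1), *Cd163* (39.2 ± 12.3), *Scarb2* (22.4 ± 0.332) and *Msr1* (20.7 ± 10.1), of which *Scarb2* and *Msr1* did not differ beyond their spread. *Colec12* (5.41 ± 1.03) came next, and *Scarb1*, *Scarf1*, *Marco* and *Scara3* were between 1.05 and 3.64 per kb with overlapping spreads.

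The order of the middle ranks was different in the Lyve-1+ population. *Cd163* (217 ± 113) was above *Cd36* (148 ± 77.6) in the mean and in 2 of the 3 libraries, whereas it was below *Cd36* in all 3 Lyve-1- libraries. *Colec12* (48.4 ± 16.4) was above *Scarb2* (33.2 ± 9.28) and *Msr1* (33.2 ± 14.6) in the mean, with overlapping spreads between libraries. Within each Lyve-1+ library, *Colec12* was above *Scarb2* (67.2, 41.1 and 37 against 42.1, 33.8 and 23.6 per kb). Within each Lyve-1- library it was below *Scarb2*. Against *Msr1*, *Colec12* was lower in Lyve-1+ replicate 2 (41.1 against 45.9) and higher in replicates 1 and 3. The other 4 receptors had means between 1.52 and 5.79 per kb. Their single Lyve-1+ libraries ran from 0 (*Scara3*, replicate 2) to 14.1 per kb (*Marco*, replicate 2). As a share of the summed level per kb of the 10 receptors, *Cd163* made up 6.69% ± 1.91 (SD, n = 3) in the Lyve-1- population and 18.9% ± 5.05 in the Lyve-1+ population, and *Colec12* made up 0.939% ± 0.253 and 4.34% ± 0.486. The share of *Cd36* was 21% ± 5.14 and 13.3% ± 6.61, with the populations overlapping.

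**Figure D4:**
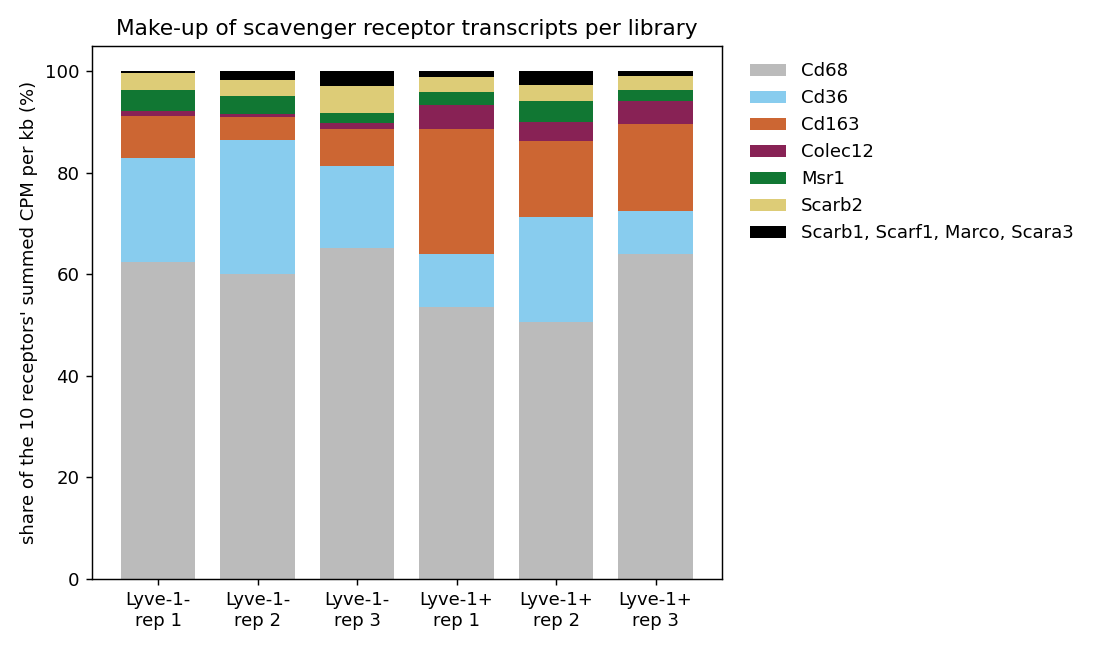
Share of each receptor in the summed CPM per kb of the 10 receptors (vertical axis, percent), with 1 stacked bar for each library. *Cd163* takes 4.55% to 8.24% of the bars in the Lyve-1- libraries and 14.8% to 24.5% in the Lyve-1+ libraries, and *Colec12* 0.655% to 1.14% against 3.8% to 4.75%; *Cd68* is the largest part of every bar.

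The age groups, 10 and 6 weeks, were then compared with adjustment for the population. In edgeR 0 of the 10 receptors were called, as were 0% of all genes tested, while 2 receptors had an unadjusted p under 0.05, a level reached by 3.33% of all genes (0.0225% had an adjusted p under 0.05). These were *Cd163*, with a mean of 1094 CPM in the 6-week libraries and 502 CPM in the 10-week libraries (log2 fold change -0.97, SE 0.24, adjusted p = 0.559 in edgeR), and *Colec12*, with 322 and 191 CPM (log2 fold change -0.62, SE 0.27, adjusted p = 1 in edgeR). Only 1 library of either population was from 6-week-old mice, so age and these pools cannot be told apart. The difference between the populations was not called as changed with age for any of the 10 (edgeR interaction term), and *Scarf1* was the only one with an unadjusted p under 0.05, which 4.59% of all genes reached, with 0.00749% at an adjusted p under 0.05.

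Among 17 further genes of the scavenger receptor classes, 14 could be tested, and 6 of these were higher and 8 lower in the Lyve-1+ population (median log2 fold change -0.14). In edgeR 0 of them were called, 6 had an unadjusted p under 0.05 (7.69% of all genes tested did), and DESeq2 called 2, *Mrc1* and *Cxcl16* (0.697% of all genes in that fit were called). *Cxcl16*, a transmembrane chemokine that also binds oxidized lipoproteins, was the 1 gene among them with an edgeR adjusted p under 0.05, which 0.629% of all genes tested had, 0.45% with higher and 0.18% with lower values in Lyve-1+ macrophages. It was at 457, 592 and 742 CPM in the Lyve-1- replicates and at 130, 185 and 288 CPM in the Lyve-1+ replicates, without overlap (log2 fold change -1.57, SE 0.32, adjusted p = 0.0376 in edgeR). *Cd5l*, a secreted protein of resident macrophages with cysteine-rich scavenger domains like those of CD163, had the largest log2 fold change, 3.63 (SE 1.33, adjusted p = 0.456 in edgeR), from 2.44, 0 and 7 CPM in the Lyve-1- replicates and 70.3, 7.47 and 37.5 CPM in the Lyve-1+ replicates. *Mrc1*, the mannose receptor, had a log2 fold change of 1.21 (adjusted p = 0.056 in edgeR). Its level was 2201, 1973 and 1364 CPM in the Lyve-1- replicates and 5742, 3586 and 3460 CPM in the Lyve-1+ replicates, without overlap. The study had reported *Mrc1* as enriched in Lyve-1+ macrophages in its bulk and its single-cell RNA-seq. By flow cytometry, it found most Lyve-1+ macrophages positive for the protein.

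Of 25 genes known as ligands, sheddases, coreceptors, lysosomal partners or regulators of the receptors, 14 were higher and 11 lower in the Lyve-1+ population (median log2 fold change 0.29). In edgeR 0 were called, 6 had an unadjusted p under 0.05 (7.69% of all genes tested did), and DESeq2 called 1, *Hmox1* (0.697% of all genes in that fit were called). *Hmox1*, the heme oxygenase that breaks down heme taken up through CD163, was at 507, 301 and 308 CPM in the Lyve-1- replicates and at 1389, 776 and 867 CPM in the Lyve-1+ replicates. The populations did not overlap (log2 fold change 1.44, SE 0.30, adjusted p = 0.0428 in edgeR). The largest positive and negative log2 fold changes were those of *Pdzk1*, an adaptor of the *Scarb1* product (2.29, adjusted p = 1 in edgeR), and *Tfeb*, a transcription factor of lysosomal genes (-1.78, adjusted p = 0.506 in edgeR), neither of which was called.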

How the data were processed

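Bulk RNA-seq was performed on 6 libraries of sorted mammary gland macrophages, 3 Lyve-1- and 3 Lyve-1+, each from a pool of 4 mice. Per the study's methods and the submitters' processing notes, paired 50-bp reads were mapped to mm10 with HISAT2 2.0.2 and counted per gene with featureCounts 1.5.0. For each of 24061 gene symbols, the authors deposited raw counts, not normalized. The strand setting, the annotation and the treatment of reads with several matches are not given in the sources used here. A further 6-week library that the methods describe as removed is not analysed here.

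Counts were analysed in R 4.3.3 with edgeR 4.0.16 (limma 3.58.1), using filterByExpr by population (13348 genes kept), TMM and the robust quasi-likelihood F test with the population as the only term. DESeq2 1.42.0, which the study's methods name, was an alternative. P-values measure the spread between pools. The common biological coefficient of variation was 0.931. Any 2 libraries of a population differed beyond counting noise. Gene positions and exon lengths came from GENCODE M21 (mm10), matched directly for 22757 symbols and by synonym for 922, and lengths are the union of all annotated exons. None of the 10 receptors shared exonic sequence with another annotated gene. In counts simulated with the estimated dispersion, edgeR called 16% of 200 genes given a log2 fold change of 2 and DESeq2 31.5%, with 0 and 27 false calls, so an uncalled gene is not shown to be unchanged.

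All receptors are named. In the lists of further scavenger receptors and of partners, named genes were up to 5 with an adjusted p under 0.05 and those with the largest rise and fall. For called receptors, the 3 genes with the highest correlation were added. *Mrc1* was named after its values were seen. The receptors and lists were chosen with earlier results of these data known. The fit was repeated with DESeq2, with other scalings (DESeq2 size factors, library totals), with the filter on low counts dropped or set to 10 counts in each library, with a term for the replicate number or for age, in the 10-week libraries only, without small RNA, ribosomal RNA and mitochondrial genes, without genes under 300 bp, at an adjusted p under 0.05, and without each library in turn. The 4 libraries with the fewest olfactory receptor genes were an alternative added after the data were seen, as were all alternatives for the partner genes and the fibroblast markers. For 1 gene of the macrophage markers and of the partners, values are not reported here, and both lists were used without it.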

Additional observations from a re-analysis of the deposited data

Results flagged for a closer look

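The population difference of *Lyve1*, the gene of the sorted protein, differed between the ages by a test of the interaction (log2 difference -4.06, edgeR adjusted p = 0.0466). *Lyve1* was at 1.43 and 2352 CPM in the 6-week Lyve-1- and Lyve-1+ libraries, at 6.66 and 788 CPM in replicate 2 and at 7.43 and 597 CPM in replicate 3 of the 10-week libraries. Age and the 6-week pools cannot be told apart.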

How the results depend on the processing

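Of 167 log2 fold changes of the 10 receptors under alternative settings, 156 kept their direction and their side of the threshold, 5 lost the call and 6 reversed. *Cd163* kept its call in 14 of 17 alternatives and *Colec12* in 15 of 17. The other receptors were never called, so for them a kept value means only the same direction. *Scarf1*, for example, kept its direction in all 16 alternatives, with log2 fold changes from 0.04 to 2.19. The 2 called receptors were 0 to 2 when 1 library was left out and 0 in the 4 libraries with the fewest olfactory receptor genes, where 0 genes were called in all; those fits use fewer samples. The reversed values were -1.59 (*Marco*), -0.29 (*Cd36*) and -0.23 (*Scarb1*) without Lyve-1+ replicate 2, -0.58 (*Scara3*) without Lyve-1+ replicate 3, -0.14 (*Cd36*) without Lyve-1- replicate 3 and -0.17 (*Cd36*) in the 4 libraries with the fewest olfactory receptor genes. For age, *Cd36* reversed to 0.21 without Lyve-1- replicate 3 and to 0.23 without Lyve-1+ replicate 3, and *Scara3* to -1.87 without Lyve-1+ replicate 3. With 1 library left out, the ranges were -1.59 to 2.35 (*Marco*), -0.29 to 0.56 (*Cd36*), -0.23 to 0.77 (*Scarb1*) and -0.58 to 1.90 (*Scara3*) for the population, and -0.49 to 0.23 (*Cd36*) and -1.87 to 2.50 (*Scara3*) for age. *Marco*, *Scara3* and *Scarf1* were at 0 counts in a library each, and none of these libraries was among the shallowest 2.

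Over all genes, 15 were called, against 151 with DESeq2, 188 without a filter on low counts, 32 with at least 10 counts in every library, 140 with the replicate block, 58 with age as a covariate, 84 at an adjusted p under 0.05 and 1 to 81 with 1 library left out. Of the further scavenger receptors 0 were called, against 2 with DESeq2, 4 without a filter, 4 with the replicate block (*Mrc1*, *Cxcl16*, *Stab1* and *Cd5l* in both of the last), 1 with age as a covariate, 1 at an adjusted p under 0.05 and 0 to 1 with 1 library left out. Of the partners 0 were called, against 1 with DESeq2, 2 without a filter, 2 with the replicate block (*Hmox1* and *Maf* in both), 1 with age as a covariate, 1 at an adjusted p under 0.05 and 0 to 1 with 1 library left out. Of the fibroblast markers 0 were called, against 1 with DESeq2, 5 without a filter and 1 with the replicate block. The causes were not tested. Over all genes tested, the deviations of same-numbered libraries from their population means correlated at -0.0462, -0.00183 and -0.147. No library correlated best with its own number. With 3 libraries per population, these correlations cannot decide whether same-numbered libraries shared mice. Single genes did vary with the replicate number, as *Cd36* and *Msr1* were lowest in replicate 3 of both populations. The unadjusted edgeR p of *Msr1* was 0.145 in the reported fit and 0.0175 with the replicate block, and it was called in neither. With the block, *Cd163* and *Colec12* remained the called receptors.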
